A study of Mus musculus and Homo sapiens with 14 samples.

Results

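The 36 genes described here are the enzymes and carriers of glycolysis, the kinases that hold pyruvate out of the mitochondrial citric acid cycle, the oxygen-sensing hypoxia-inducible factor (HIF) axis, and other genes that HIF is known to induce. They were chosen by symbol, with earlier results of these data known. The shares of them called below are therefore a description and not an independent test. Of 37 symbols, Ero1l is the older name of Ero1a, so that 36 genes remained, out of 50559 rows in the tumour table and 55969 rows in the cell table. All 36 were present in both tables and all passed the filter on low counts, among 19993 genes tested in tumours and 19123 in cultured cells. Bulk RNA came from EL4 tumours of 2 groups called P0 and P3, EL4 being a T-cell lymphoma line of the mouse, and from cultured EG7-OVA cells, an EL4 derivative that expresses chicken ovalbumin. What P0 and P3 stand for is not stated in the labels. Treatment of EG7-OVA cells was with 1.5 µM azacytidine, 0.2 µM decitabine or their solvent DMSO, given at 0, 24 and 48 h, and cells were collected at 72 h. Every group held 2 libraries, the genotype of each was labelled WT, and the DMSO libraries were the controls of both drugs. Azacytidine and decitabine are cytosine analogues that trap DNA methyltransferases, and they differ in the sugar, which is ribose in azacytidine and deoxyribose in decitabine. The labels do not state whether the libraries of a group came from separate animals or cultures, so the p-values measure only the spread between these libraries.

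Total counts were 21621580 to 25328708 per tumour library and 15690747 to 21048979 per EG7-OVA library. Between the libraries of a group, log levels correlated across genes with r from 0.969 to 0.991. Levels below are CPM (counts scaled to a total of 1000000) after TMM scaling, and errors of levels are SD with n = 2. T-cell markers such as Cd3e and Lck were expressed in both tables, whereas Trac and Trbc2, which encode T-cell receptor constant regions, were at 0 in all tumour libraries. In EG7-OVA cells Trac was at 85.7 to 135.3 CPM. Whether both tables were counted in the same way was not tested. Some libraries stood apart. In tumours the skeletal muscle list (8 genes) summed to 574.1 CPM in P3 replicate 1 and to 0.966 CPM in P3 replicate 2, against 10.3 and 8.20 CPM in P0. In EG7-OVA cells the B-cell list summed to 4.27 and 49.5 CPM in DMSO replicates 1 and 2, and the T-cell receptor constant gene Trbc2 was at 8.04 and 133.1 CPM. Of the members, Ndrg1, P4ha2 and Aldoc also differed between those libraries (values below). For some members, values without 1 of these libraries are also given.

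Glycolysis splits glucose into pyruvate, which lactate dehydrogenase turns into lactate or mitochondria oxidise. When oxygen falls, prolyl hydroxylases no longer mark the HIF alpha subunit for destruction, and HIF binds a short sequence, ACGTG or GCGTG, in front of many of these genes and raises their transcription. Lymphoma cells, like many dividing cells, run glycolysis at a high rate even in oxygen, and MYC drives several of the same genes.

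Promoters are printed for the 6 genes that were called with both drugs in EG7-OVA cells, to show where the letters of the core HIF motif lie in front of them. The 250 bases before the start of a gene were taken from RefSeq on GRCm38.p6, where 33 of the 36 genes were matched (Slc2a3, Bnip3l and Ndrg1 were not). ACGTG, read on either strand, was found for 22 of these 33 genes (66.7%). It was found in windows of the same length for 18.5% of 27025 genes with a promoter, for 24.1% of genes tested in EG7-OVA cells and for 22.8% of those tested in tumours. GCGTG was found for 69.7% of the members, 30.9% of all genes with a promoter, 46.7% of genes tested in EG7-OVA cells and 43.5% of those tested in tumours. Either was found for 31 of the 33 members (93.9%), 41.5% of all genes with a promoter, 58.0% of genes tested in EG7-OVA cells and 54.7% of those tested in tumours. A gene was counted if any of its windows matched, and genes with several starts have several windows. The 33 members had 51 windows, and the 27025 genes had 32851. Counted per window, ACGTG was found in 51.0% of the member windows and 16.6% of all windows. GCGTG was found in 52.9% and 28.2%. The members were picked as hypoxia genes, so that the higher share describes the choice. A match is a description of letters and not a binding site. Sequences run 5′ to 3′ on the gene's strand, and capitals mark each match to ACGTG or to GCGTG on either strand. Where CACGTG stands, both strands of it hold ACGTG and the matches overlap.
Pgk1, chrX:106186850-106187099, + strand: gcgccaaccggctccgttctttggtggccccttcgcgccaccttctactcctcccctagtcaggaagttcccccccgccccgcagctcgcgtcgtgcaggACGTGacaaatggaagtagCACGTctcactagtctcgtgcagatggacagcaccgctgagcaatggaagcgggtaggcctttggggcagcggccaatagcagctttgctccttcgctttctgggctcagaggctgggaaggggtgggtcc
Ero1a, chr14:45318573-45318822, − strand: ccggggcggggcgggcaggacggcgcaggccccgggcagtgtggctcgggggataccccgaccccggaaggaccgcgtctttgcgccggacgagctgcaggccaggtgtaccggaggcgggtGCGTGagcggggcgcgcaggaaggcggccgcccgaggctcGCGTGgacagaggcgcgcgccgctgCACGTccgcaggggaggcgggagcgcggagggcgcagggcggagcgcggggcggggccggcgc
Pfkfb3, chr2:11502091-11502340, − strand: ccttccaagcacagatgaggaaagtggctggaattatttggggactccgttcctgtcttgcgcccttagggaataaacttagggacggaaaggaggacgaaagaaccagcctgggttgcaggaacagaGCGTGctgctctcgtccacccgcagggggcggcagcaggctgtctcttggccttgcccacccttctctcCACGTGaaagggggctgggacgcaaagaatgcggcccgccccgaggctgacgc
Ddit4, chr10:59951771-59952020, − strand: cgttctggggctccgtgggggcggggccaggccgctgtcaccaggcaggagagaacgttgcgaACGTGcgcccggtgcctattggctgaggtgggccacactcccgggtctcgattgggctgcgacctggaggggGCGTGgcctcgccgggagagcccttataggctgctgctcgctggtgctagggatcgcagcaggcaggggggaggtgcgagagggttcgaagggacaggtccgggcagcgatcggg
Pdk1, chr2:71872974-71873223, + strand: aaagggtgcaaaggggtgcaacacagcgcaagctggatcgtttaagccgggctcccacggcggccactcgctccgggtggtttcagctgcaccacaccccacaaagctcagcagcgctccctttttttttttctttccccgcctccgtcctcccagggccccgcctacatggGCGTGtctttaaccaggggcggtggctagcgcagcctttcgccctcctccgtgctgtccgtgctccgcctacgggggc
Pfkp, chr13:6648772-6649021, − strand: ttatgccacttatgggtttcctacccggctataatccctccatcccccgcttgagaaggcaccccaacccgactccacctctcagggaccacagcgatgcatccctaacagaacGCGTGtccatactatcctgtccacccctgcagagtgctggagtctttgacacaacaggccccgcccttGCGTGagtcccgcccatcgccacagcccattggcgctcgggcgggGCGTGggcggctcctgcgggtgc
The printed windows of Pgk1, Ero1a, Pfkfb3 and Ddit4 held ACGTG, and those of Pfkp and Pdk1 held GCGTG without ACGTG. Pfkfb3 and Pdk1 each had a further window, not printed, which held ACGTG in Pfkfb3 and neither motif in Pdk1. In Pgk1 the ACGTG matches ended 146 and 127 bases before the start. In Ero1a an ACGTG match ended 59 bases before it and GCGTG matches 124 and 84 bases before it. In this promoter of Pfkfb3 the overlapping ACGTG pair ended 49 and 48 bases and a GCGTG match 118 bases before the start. In Ddit4 ACGTG ended 183 and GCGTG 111 bases before it, in Pfkp 3 GCGTG matches ended 132, 64 and 19 bases before it, and in Pdk1 a GCGTG match ended 74 bases before it. ACGTG was found for 4 and either motif for 7 of the 7 members called lower with azacytidine, and for 3 and 5 of the 5 called lower with decitabine. Among the 13 members called in tumours that had a promoter, 9 held ACGTG and 12 either motif.

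The first question is what the drugs did to these genes in cultured cells. With azacytidine 7 of the 36 genes fell (19.4%), where 6.7% of all genes tested were called lower, and 1 rose (2.78%), where 13.6% were called higher (edgeR quasi-likelihood test, Benjamini-Hochberg adjusted p under 0.05). With decitabine 5 fell (13.9%), against 4.3% of all genes tested, and 3 rose (8.33%), against 12.4%. The genes that fell with azacytidine were Hk2, Pfkp, Pfkfb3, Pgk1, Eno1, Pdk1 and Ero1a, and with decitabine Pfkp, Pfkfb3, Pgk1, Pdk1 and Ero1a. Ddit4 was called higher with both drugs, and Mxi1 and Ndrg1 with decitabine. Most members are abundant: 30 of them had a mean of 10 CPM or more over the azacytidine and DMSO libraries and 31 over those of decitabine and DMSO. Among those, 7 of 30 (23.3%) fell with azacytidine against 11.6% of all genes at that level, and 5 of 31 (16.1%) with decitabine against 8.26%. The shares called higher were not matched for level in this way, so they compare abundant members with genes of all levels. The median log2 fold change of the members was −0.39 with azacytidine and −0.26 with decitabine, beside 0.033 and 0.036 over all genes tested. The fold was below 0 for 27 and 23 members, beside 48.0% and 47.5% of all genes tested. Without azacytidine replicate 2 the members that fell with azacytidine were 3, and without DMSO replicate 2 those that rose were 3. With decitabine 2 fell without decitabine replicate 1, 1 without decitabine replicate 2 and 3 without either DMSO library, and 1 rose without decitabine replicate 2. In bulk RNA, fewer cells of a type and less RNA per cell cannot be told apart.

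**Figure D1:**
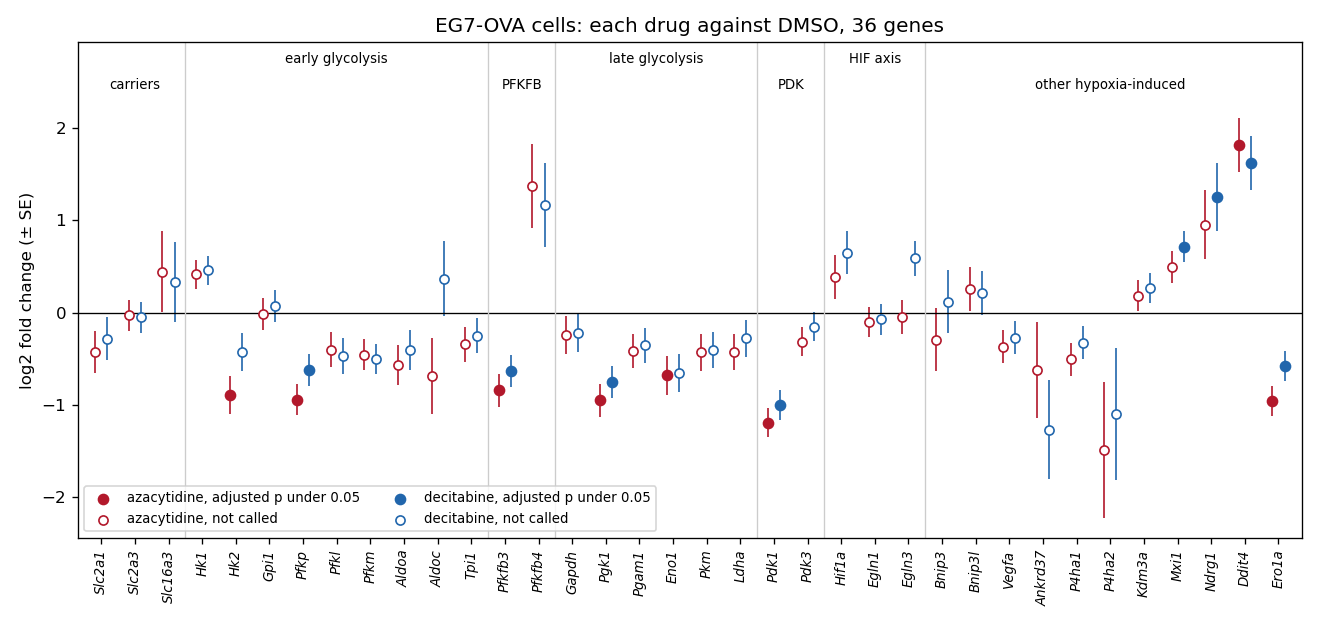
Log2 fold change with its standard error of each of the 36 genes in EG7-OVA cells, azacytidine (red) and decitabine (blue) against the same 2 DMSO libraries, ordered by role; filled points passed an edgeR adjusted p of 0.05. Filled points lie below 0 for 7 genes with azacytidine and 5 with decitabine, and Ddit4 lies highest for both.

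Glucose enters through Slc2a1 (GLUT1) and Slc2a3 (GLUT3), and lactate leaves through Slc16a3 (MCT4). None of these 3 carriers passed the test with either drug. Slc2a3 was the more abundant glucose carrier, at 1549 to 1753 CPM over the 6 libraries, and its log2 fold change was −0.03 ± 0.17 (SE) with azacytidine and −0.05 ± 0.17 with decitabine. Slc2a1 stood at 73.4 and 73.6 CPM in the controls, 67.2 and 42.1 after azacytidine and 52.3 and 68.4 after decitabine. All treated libraries lay below the controls, but the differences (log2 −0.43 ± 0.23 and −0.29 ± 0.23) did not pass the test (edgeR adjusted p = 0.232 and 0.460). Slc16a3 was scarce, at 1.51 to 3.28 CPM.

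Among the enzymes of the preparatory steps, the hexokinase Hk2 and the phosphofructokinase Pfkp fell. Hk2 traps glucose in the cell as glucose 6-phosphate and binds the mitochondrial surface. It stood at 174.6 and 157.8 CPM in the controls, 105.3 and 73.9 after azacytidine and 137.5 and 109.0 after decitabine, and the groups did not overlap. The log2 fold change was −0.89 ± 0.21 with azacytidine (edgeR adjusted p = 0.0132) and −0.43 ± 0.20 with decitabine, which did not pass (adjusted p = 0.190). Without azacytidine replicate 2 the Hk2 call was lost (−0.70, adjusted p = 0.113). Hk1, the more widely expressed hexokinase, stood at 193.5 and 188.9 CPM in the controls, 270.7 and 238.1 after azacytidine and 256.0 and 268.9 after decitabine. Its log2 fold changes of 0.41 ± 0.16 and 0.46 ± 0.16 did not pass (edgeR adjusted p = 0.0947 and 0.0770). DESeq2 called both (adjusted p = 0.0425 and 0.0319).

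Phosphofructokinase commits glucose to glycolysis, and Pfkp, Pfkl and Pfkm encode its platelet, liver and muscle forms. Pfkp stood at 719.8 and 774.5 CPM in the controls, 410.7 and 365.6 after azacytidine and 518.5 and 451.6 after decitabine. Every treated library lay below both controls. The log2 fold change was −0.94 ± 0.17 with azacytidine (edgeR adjusted p = 0.00382) and −0.62 ± 0.17 with decitabine (adjusted p = 0.0310). The azacytidine call of Pfkp held in each of 12 alternatives. The decitabine call was lost when any 1 of the 4 libraries compared was left out: −0.77 (adjusted p = 0.0686) and −0.54 (0.237) without decitabine replicates 1 and 2, and −0.68 (0.0547) and −0.61 (0.0609) without DMSO replicates 1 and 2. It was also lost when only the 4 libraries compared were fitted (−0.64, edgeR adjusted p = 0.0564). Pfkl and Pfkm lay below both controls in every treated library, with log2 fold changes from −0.40 to −0.50, and were not called. Aldoa, Aldoc, Gpi1 and Tpi1 were not called either. Aldoc differed between the DMSO libraries themselves (5.28 and 13.9 CPM). Its direction with azacytidine turned with the control left out, from −1.24 without DMSO replicate 1 to 0.13 without DMSO replicate 2.

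The bifunctional enzymes Pfkfb3 and Pfkfb4 make and break fructose 2,6-bisphosphate, the strongest activator of phosphofructokinase, and Pfkfb3 works mainly as the kinase. Pfkfb3 (chr2:11471433-11554077, mm10, − strand) stood at 102.1 and 97.8 CPM in the controls, 58.7 and 52.8 after azacytidine and 72.0 and 56.7 after decitabine. Both drugs gave levels below both controls. For Pfkfb3 the log2 fold change was −0.84 ± 0.18 with azacytidine (edgeR adjusted p = 0.00823) and −0.63 ± 0.18 with decitabine (adjusted p = 0.0342). The azacytidine call was lost without azacytidine replicate 1 (−0.95, adjusted p = 0.0508) or 2 (−0.80, 0.0739). The decitabine call was lost without decitabine replicate 2 (−0.49, 0.222), DMSO replicate 1 (−0.61, 0.130) or DMSO replicate 2 (−0.71, 0.0550), and with only the 4 libraries compared (−0.65, 0.0579). Pfkfb4 was scarce, at 1.26 and 2.89 CPM with DMSO and 4.17 to 6.60 CPM with the drugs. Its log2 fold changes of 1.37 ± 0.46 and 1.17 ± 0.46 did not pass (edgeR adjusted p = 0.0604 and 0.114).

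In the payoff steps, where ATP is made, phosphoglycerate kinase Pgk1 and enolase Eno1 fell. Pgk1 (chrX:106187100-106203699, mm10, + strand), whose promoter is printed above, stood at 813.9 and 724.3 CPM in the controls, 441.2 and 354.7 after azacytidine and 469.7 and 443.6 after decitabine. Even the highest treated library lay well under the lower control. The log2 fold change was −0.95 ± 0.18 (edgeR adjusted p = 0.00476) with azacytidine and −0.75 ± 0.18 (0.0168) with decitabine. The azacytidine call of Pgk1 was lost without azacytidine replicate 2 (−0.84, adjusted p = 0.0607), and the decitabine call without decitabine replicate 1 (−0.83, 0.0650) or 2 (−0.73, 0.136) or DMSO replicate 1 (−0.68, 0.0622). Eno1, the main enolase outside muscle and nerve, stood at 1929 and 1557 CPM in the controls, 1261 and 912.9 after azacytidine and 1059.6 and 1159.5 after decitabine. All treated levels lay below both controls, but the controls also differed. For Eno1 the log2 fold change was −0.68 ± 0.21 with azacytidine (edgeR adjusted p = 0.0429) and −0.65 ± 0.21 with decitabine, just short of the threshold (0.0580). The azacytidine call of Eno1 was lost without azacytidine replicate 1 (−0.97, adjusted p = 0.0608) or 2 (−0.51, 0.256) and without DMSO replicate 1 (−0.54, 0.139), and also when only the 4 libraries compared were fitted (adjusted p = 0.0761). Gapdh, Pgam1, Pkm and Ldha had log2 fold changes from −0.22 to −0.43 and were not called. Together the 3 carriers and the 15 enzymes from hexokinase to lactate dehydrogenase took up 1.51% and 1.50% of all counts in the controls, 1.27% and 1.08% after azacytidine and 1.19% and 1.30% after decitabine. The summed share was lower in each treated library than in both controls.

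Pdk1 and Pdk3 phosphorylate pyruvate dehydrogenase and so keep pyruvate out of the citric acid cycle, and Pdk1 is a known HIF target. Pdk1 (chr2:71873224-71903858, mm10, + strand) stood at 254.2 and 262.5 CPM in the controls, 117.2 and 109.1 after azacytidine and 137.6 and 120.1 after decitabine. The controls lay close together and every treated library was far below them. The log2 fold change was −1.19 ± 0.16 with azacytidine (edgeR adjusted p = 0.000812) and −1.003 ± 0.16 with decitabine (0.00244), and both calls held in each of 12 alternatives. Pdk3 stood at 88.4 and 85.6 CPM in the controls, 70.4 and 69.4 after azacytidine and 83.1 and 73.4 after decitabine, with log2 fold changes of −0.32 ± 0.16 and −0.15 ± 0.16 that did not pass (adjusted p = 0.197 and 0.577).

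**Figure D2:**
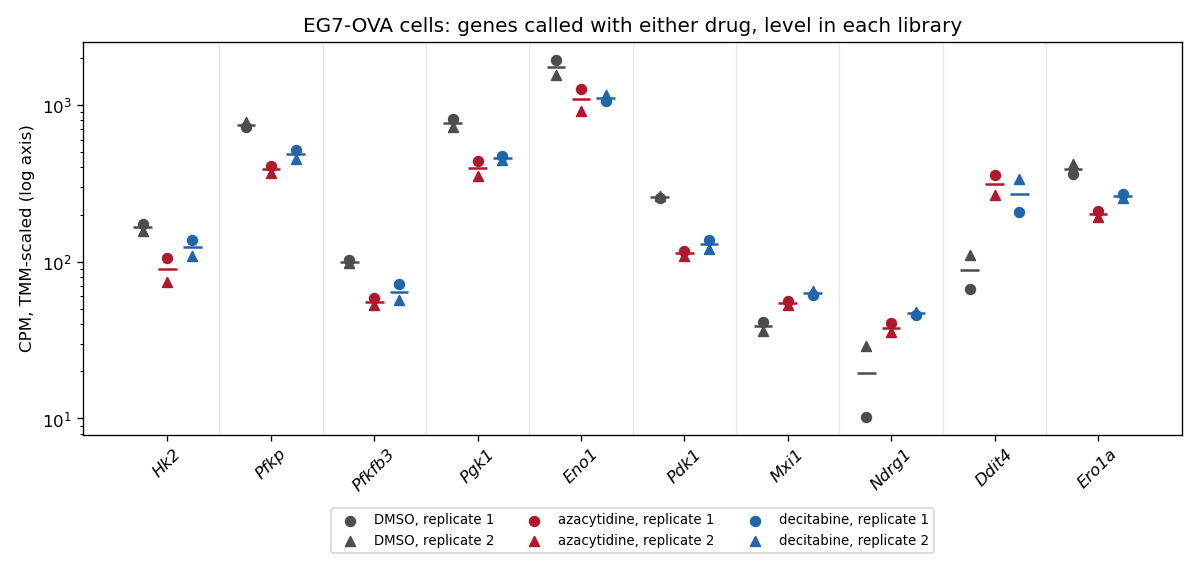
Level in CPM (log axis) of the 10 genes called with either drug in each EG7-OVA library; circles are replicate 1, triangles replicate 2 and short lines group means. Both drugs lie below DMSO for Hk2, Pfkp, Pfkfb3, Pgk1, Eno1, Pdk1 and Ero1a and above it for Mxi1, Ndrg1 and Ddit4; the 2 DMSO values of Ndrg1, 10.3 and 29.0 CPM, lie far apart.

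Hif1a encodes the oxygen-regulated HIF subunit, and Egln1 and Egln3 encode prolyl hydroxylases that mark it for destruction. None of them passed the test with either drug. Hif1a stood at 188.4 and 155.0 CPM in the controls, 172.4 and 275.7 after azacytidine and 239.5 and 298.0 after decitabine. Its log2 fold change was 0.38 ± 0.23 (edgeR adjusted p = 0.286) and 0.65 ± 0.23 (0.0891). Egln3, itself a HIF target, stood at 193.2 and 186.7 CPM in the controls, 175.4 and 192.2 after azacytidine and 238.1 and 332.8 after decitabine. With decitabine both libraries lay above the controls, but the log2 fold change of 0.59 ± 0.19 did not pass the test (edgeR adjusted p = 0.0592), and DESeq2 called it (0.0264).

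Of the other hypoxia-induced genes, Ero1a fell with both drugs. Ero1a (chr14:45283087-45318771, mm10, − strand) encodes the oxidase that passes electrons to oxygen as disulfide bonds form in the endoplasmic reticulum. It stood at 363.2 and 419.8 CPM in the controls, 209.5 and 193.4 after azacytidine and 268.5 and 255.6 after decitabine. The 3 groups did not overlap, with azacytidine lowest. For Ero1a the log2 fold change was −0.96 ± 0.16 with azacytidine (edgeR adjusted p = 0.00294), a call that held in each of 12 alternatives. With decitabine it was −0.58 ± 0.16 (0.0356), a call lost without decitabine replicate 1 (−0.65, 0.0966) or 2 (−0.56, 0.194) or DMSO replicate 2 (−0.52, 0.106). It was lost too with only the 4 libraries compared (−0.59, edgeR adjusted p = 0.0630) and with the replicate number as a block (−0.58, 0.0527).

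Ddit4 (REDD1) restrains the growth kinase complex mTORC1 and is induced by hypoxia and also by p53, glucocorticoids and amino acid shortage. Ddit4 (chr10:59949669-59951834, mm10, − strand) stood at 67.0 and 109.6 CPM in the controls, 356.6 and 265.4 after azacytidine and 206.4 and 335.4 after decitabine. All treated libraries lay above both controls, although the libraries within each group also differed. The log2 fold change was 1.82 ± 0.29 with azacytidine (edgeR adjusted p = 0.00220) and 1.62 ± 0.29 with decitabine (0.00463), and both calls held in each of 12 alternatives. Mxi1, which competes with MYC for its partner MAX, stood at 41.2 and 36.1 CPM in the controls, 55.9 and 52.9 after azacytidine and 61.6 and 65.1 after decitabine. Mxi1 rose with decitabine (0.71 ± 0.17, edgeR adjusted p = 0.0170), and with azacytidine the log2 fold change was 0.49 ± 0.17 and did not pass (0.0656). The decitabine call of Mxi1 was lost without decitabine replicate 1 (0.71, 0.0586) or 2 (0.66, 0.106) or DMSO replicate 2 (0.58, 0.115).

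Ndrg1, a stress-induced gene linked to differentiation, stood at 10.3 and 29.0 CPM in the controls, 40.4 and 35.4 after azacytidine and 45.4 and 48.1 after decitabine. All treated libraries lay above both controls, but the controls lay far apart. For Ndrg1 the log2 fold change was 1.25 ± 0.37 with decitabine (edgeR adjusted p = 0.0451) and 0.95 ± 0.37 with azacytidine (0.102). Without DMSO replicate 1 the decitabine value was 0.68 and its call was lost. Without DMSO replicate 2 the decitabine value was 2.14 and that of azacytidine 1.84. The decitabine call was also lost without decitabine replicate 1 (1.26, 0.0980) or 2 (1.20, 0.151) and with only the 4 libraries compared (1.24, 0.0862). Those DMSO libraries differed in the B-cell list too (4.27 and 49.5 CPM), whose part in the Ndrg1 result was not tested. The other 7 genes of this group, Bnip3, Bnip3l, Vegfa, Ankrd37, P4ha1, P4ha2 and Kdm3a, were not called with either drug. Of these, P4ha1, which hydroxylates collagen, lay below both controls in every treated library, at 59.6 to 77.2 CPM against 80.4 and 99.3. Its log2 fold change was −0.51 ± 0.18 with azacytidine (edgeR adjusted p = 0.0740) and −0.33 ± 0.18 with decitabine (0.258). Ankrd37 was at no more than 1.30 CPM in any library, and P4ha2 was at 1.11 and 6.18 CPM in the controls.

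Marker lists of the cells themselves and of other cell types were read in the EG7-OVA comparisons, beside the 13.6% and 12.4% of all tested genes called higher with azacytidine and decitabine. Of the T lymphoma list, 2 of 12 genes were called higher with azacytidine and 3 with decitabine, and the list summed to 1911 and 1981 CPM with DMSO against 2267 to 2757 CPM with the drugs. Of the macrophage list, 5 of 9 tested genes were called higher with each drug, with sums of 39.97 to 40.67 CPM with DMSO and 55.9 to 79.3 CPM with the drugs, and the defining genes C1qa, C1qb, C1qc and Ms4a7 were at 0 throughout. Of the fibroblast list, 4 of 7 tested genes were called higher and 1 lower with azacytidine and 5 higher with decitabine, with Col3a1 and Dcn at 0. The sums of this list were 225.1 to 228.6 CPM with DMSO and 163.6 to 366.6 CPM with the drugs. Of the B-cell list 0 of 7 tested genes were called with either drug, of the muscle list 0 of 2 and of the erythroid list 0 of 1. Of the endothelial list 1 of 4 was called higher with each drug. Of the dendritic cell list 1 of 3 was lower with each drug, and 1 was higher with decitabine. No gene of the neutrophil list passed the filter. The part of these lists in the results was not tested.

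Azacytidine and decitabine were then compared with each other in the same fit, as a single pair at different doses. No member passed the test of the difference between the drugs (0 of 36), and no gene of the whole table did (0%, edgeR adjusted p under 0.05). At an unadjusted p under 0.05 there were 4 members and 1218 genes of 19123, and DESeq2 called 177 genes, none of them members. For Pdk1 the log2 difference, azacytidine minus decitabine, was −0.19 with a 95% interval of −0.54 to 0.17, and for Ddit4 it was 0.20 with an interval of −0.43 to 0.83. Those with an unadjusted p under 0.05 were Egln3 at −0.64 (−1.05 to −0.22), Aldoc at −1.05 (−1.97 to −0.14), Hk2 at −0.46 (−0.92 to −0.0035) and Ero1a at −0.38 (−0.74 to −0.018), all lower with azacytidine and none past the adjustment (edgeR adjusted p = 0.427 to 0.779). The median difference of the members was −0.12, beside 0.0038 over all genes tested. A difference that misses the threshold does not show that the drugs act alike, and the doses of 1.5 and 0.2 µM also differ.

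Isoenzymes of one step can be set side by side per length, as CPM per kb of exon from GENCODE vM21. In EG7-OVA cells Hk2 made up 56.3% and 54.4% of the Hk1 and Hk2 level in the controls, 35.7% and 30.7% after azacytidine and 43.4% and 36.7% after decitabine. Per kb, Hk2 was therefore the larger part in both control libraries and the smaller part in all 4 treated ones. In CPM, without division by length, Hk1 was above Hk2 in the controls too (193.5 and 188.9 against 174.6 and 157.8). Which of them is larger in the controls thus depends on the exon lengths used, 8532 bp for Hk1 and 5969 bp for Hk2. Pdk1 made up 48.6% and 50.2% of the Pdk1 and Pdk3 level in the controls, 35.4% and 34.1% after azacytidine and 35.3% and 35.0% after decitabine. Exon lengths matter here too, 7779 bp for Pdk1 and 2561 bp for Pdk3. In CPM Pdk1 was above Pdk3 in every EG7-OVA library. With DMSO it was at 254.2 and 262.5 against 88.4 and 85.6, and with azacytidine at 117.2 and 109.1 against 70.4 and 69.4. With decitabine it was at 137.6 and 120.1 against 83.1 and 73.4. In tumours the Hk2 share moved the other way than with the drugs, from 44.7% and 45.7% in P0 to 54.0% and 57.7% in P3. There too Hk1 was above Hk2 in CPM in P3 (215.9 and 233.1 against 177.3 and 222.6). The Pfkp share of the phosphofructokinases was 30.3% and 29.0% in P0 and 33.3% and 46.6% in P3, so that 1 P3 library stood apart. It rests on exon lengths of 13401 bp for Pfkp, 6675 bp for Pfkl and 3340 bp for Pfkm. In P0, Pfkp was above Pfkl in CPM (376.5 and 338.8 against 312.2 and 295.8) but below it per kb. Shares were described and not tested, since the change of each gene is tested above or below.

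**Figure D3:**
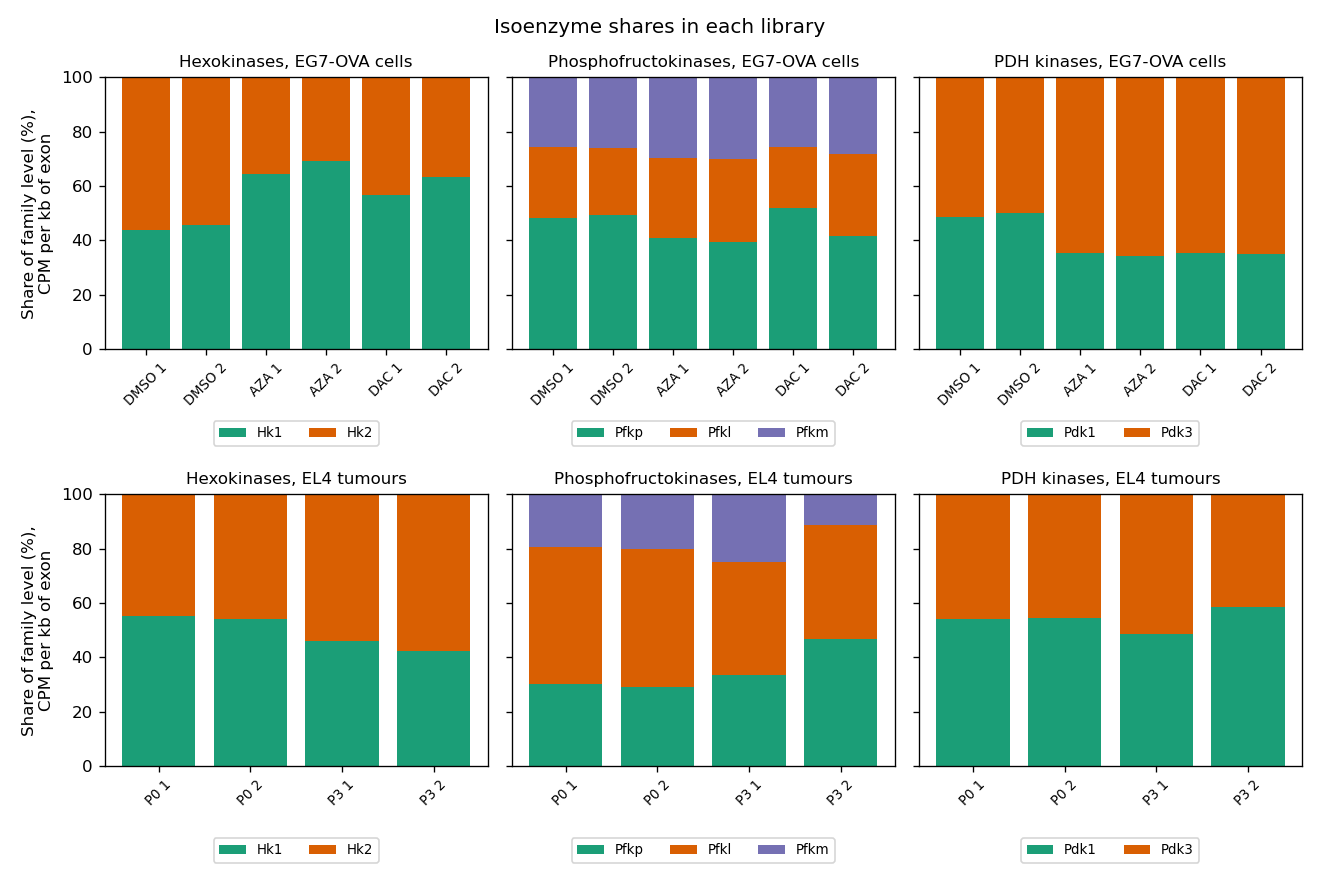
Share of each isoenzyme (%) in the summed level of its family, in CPM per kb of exon, for hexokinases, phosphofructokinases and pyruvate dehydrogenase (PDH) kinases; each bar is 1 library, EG7-OVA cells above and EL4 tumours below. The Hk2 part shrinks from 56.3% and 54.4% with DMSO to 30.7% to 43.4% with the drugs, and grows from 44.7% and 45.7% in P0 to 54.0% and 57.7% in P3.

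The second question is how the genes differed between P3 and P0 tumours. In P3 tumours 12 of the 36 genes were lower (33.3%), where 19.9% of all genes tested were called lower, and 3 were higher (8.33%), where 18.8% were called higher (edgeR quasi-likelihood test, adjusted p under 0.05). Among genes at a mean of 10 CPM or more, 11 of 34 members (32.4%) were lower, against 23.7% of all genes at that level. Here too the share called higher was not matched for level. The lower genes were Aldoa, Tpi1, Pfkfb4, Pgam1, Eno1, Pdk3, Bnip3, Bnip3l, P4ha2, Kdm3a, Mxi1 and Ndrg1. The higher genes were Slc16a3, Hk2 and Ero1a. The median log2 fold change of the members was −0.32, beside −0.0019 over all genes tested, and it was below 0 for 26 members and for 50.1% of all genes. Leaving out P0 replicate 1 or 2 ended all 15 calls in edgeR, where then 0 genes of the whole table passed. With DESeq2, 2 members higher and 3 lower remained called without P0 replicate 1, and 2 and 5 without P0 replicate 2. Ero1a, Tpi1, Eno1 and Ndrg1 were called by DESeq2 in both cases.

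**Figure D4:**
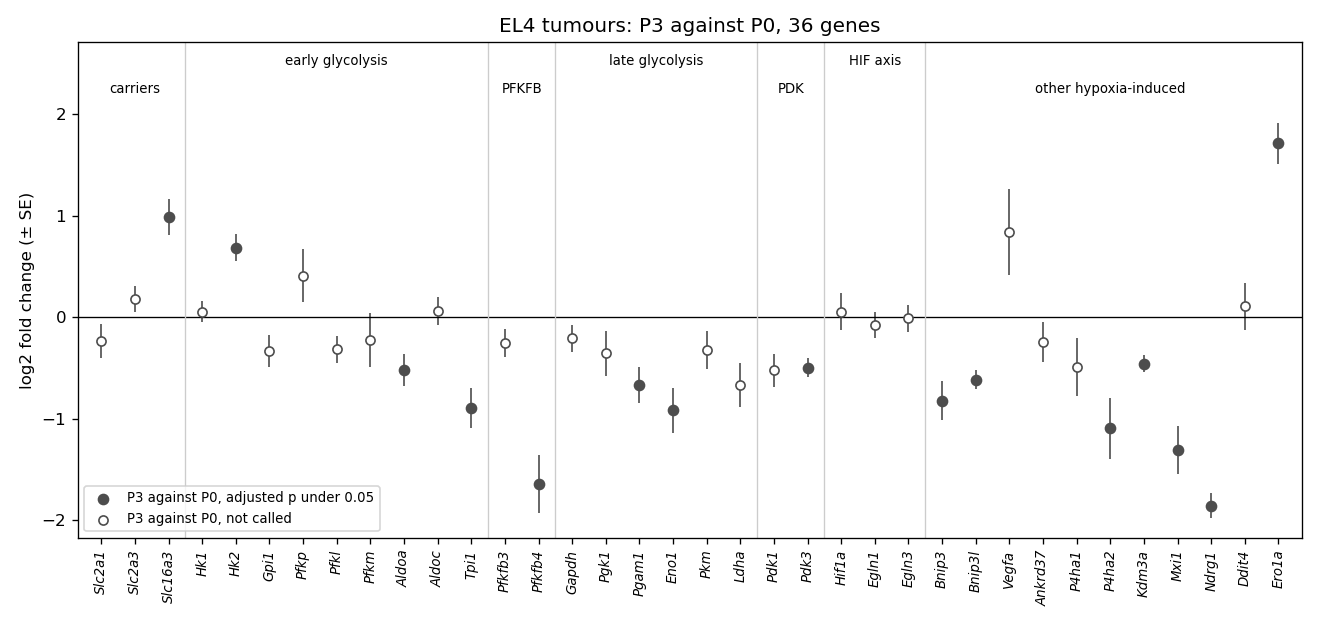
Log2 fold change with its standard error of each of the 36 genes in EL4 tumours, P3 against P0, 2 libraries per group, ordered by role; filled points passed an edgeR adjusted p of 0.05. Ero1a lies highest at 1.71 and Ndrg1 lowest at −1.85.

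The lactate exporter Slc16a3 and the hexokinase Hk2 were higher in P3. Slc16a3 stood at 30.5 and 33.9 CPM in P0 and 53.4 and 74.1 in P3, a log2 fold change of 0.98 ± 0.18 (edgeR adjusted p = 0.0109). Hk2 stood at 129.4 and 120.01 CPM in P0 and 177.3 and 222.6 in P3 (0.68 ± 0.13, adjusted p = 0.0138). In both genes each P3 library lay above both P0 libraries. The glucose carriers Slc2a1 and Slc2a3 were not called, at −0.24 ± 0.17 and 0.18 ± 0.13. Pfkp was at 376.5 and 338.8 CPM in P0 and 347.9 and 601.2 in P3. It was not called (0.41 ± 0.26, edgeR adjusted p = 0.250). Its log2 fold change was 0.76 without P3 replicate 1 and −0.05 without P3 replicate 2. Pfkm, the muscle form, stood at 59.6 and 58.7 CPM in P0 and 65.0 and 36.2 in P3. It was not called (−0.22 ± 0.27, edgeR adjusted p = 0.527). The log2 fold change of Pfkm was −0.69 without P3 replicate 1 and 0.13 without P3 replicate 2. P3 replicate 1 was the library with 574.1 CPM of skeletal muscle markers, whose part in the Pfkm level was not tested.

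Enzymes of the middle and later steps were lower in P3. Aldolase Aldoa stood at 1003 and 846.1 CPM in P0 and 581.5 and 706.8 in P3 (−0.52 ± 0.16, edgeR adjusted p = 0.0478). The Aldoa value lay at the threshold and was not called with median-ratio size factors (adjusted p = 0.0504). Tpi1, which interconverts the triose phosphates, fell from 453.3 and 427.3 CPM to 190.6 and 284.2 (−0.89 ± 0.20, adjusted p = 0.0202). Pgam1, phosphoglycerate mutase, fell from 332.1 and 304.2 CPM to 166.9 and 234.5 (−0.66 ± 0.18, adjusted p = 0.0330). Eno1 fell from 1942 and 1753 CPM to 784.1 and 1175 (−0.92 ± 0.22, adjusted p = 0.0260). In each of these 4 genes P3 replicate 1 was the lowest library. Ldha, at 1456 and 1370.1 CPM in P0 and 708.4 and 1066 in P3, was not called (−0.67 ± 0.22, adjusted p = 0.0562), and neither were Pgk1, Pkm, Gapdh and Gpi1. The 3 carriers and 15 enzymes took up 1.18% and 1.10% of counts in P0 and 0.829% and 1.02% in P3. Pfkfb4 was scarce and lower still in P3, at 7.38 and 8.71 CPM in P0 and 3.10 and 2.06 in P3 (−1.64 ± 0.28, edgeR adjusted p = 0.00996). Pdk3 fell from 87.1 and 89.7 CPM to 65.5 and 59.7 (−0.50 ± 0.09, adjusted p = 0.0125). Pdk1 was at 311.6 and 328.0 CPM in P0 and 187.7 and 257.1 in P3 and just missed the threshold (−0.52 ± 0.16, adjusted p = 0.0520).

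Ero1a rose most among the members. It stood at 217.3 and 218.5 CPM in P0 and 575.7 and 848.9 in P3, a log2 fold change of 1.71 ± 0.20 (edgeR adjusted p = 0.00366). Both P3 libraries lay far above both P0 libraries. In EG7-OVA cells the same gene fell with both drugs, and the tables were not compared with each other. Ndrg1 (chr15:66929318-66969640, mm10, − strand) fell most, from 201.2 and 165.9 CPM to 48.7 and 52.9 (−1.85 ± 0.13, adjusted p = 0.00111). Mxi1 fell from 31.3 and 27.4 CPM to 9.24 and 14.4 (−1.31 ± 0.23, adjusted p = 0.0110). The collagen prolyl hydroxylase P4ha2 fell from 22.2 and 24.9 CPM to 7.74 and 14.3 (−1.09 ± 0.30, adjusted p = 0.0358). The histone H3K9 demethylase Kdm3a fell from 141.3 and 148.4 CPM to 102.7 and 108.3 (−0.46 ± 0.09, adjusted p = 0.0130). The mitophagy receptors Bnip3 and Bnip3l were both lower. Bnip3 stood at 49.4 and 46.2 CPM in P0 and 22.1 and 32.0 in P3 (−0.82 ± 0.19, edgeR adjusted p = 0.0221). A predicted gene on the opposite strand covers 22.3% of its exons, and the strand setting of the counting is not given in the sources used here, so its count is uncertain. Bnip3l stood at 131.1 and 137.0 CPM in P0 and 83.0 and 92.0 in P3 (−0.62 ± 0.09, adjusted p = 0.00720). Hif1a, Egln1 and Egln3 were not called, with log2 fold changes from −0.08 to 0.06. The direction of Hif1a turned with the P3 library left out, from 0.32 without P3 replicate 1 to −0.25 without P3 replicate 2.

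**Figure D5:**
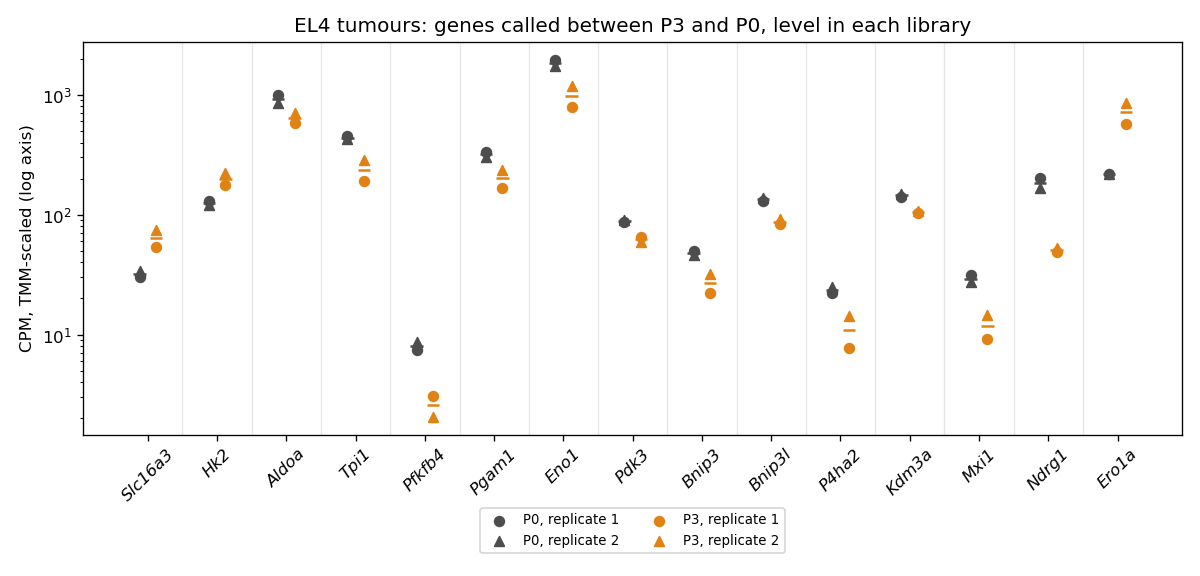
Level in CPM (log axis) of the 15 genes called between P3 and P0 in each EL4 tumour library; circles are replicate 1, triangles replicate 2 and short lines group means. Slc16a3, Hk2 and Ero1a are higher in P3 and the other 12 lower.

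The P3 libraries differed from each other in several members. Vegfa, the vascular growth factor, stood at 46.7 and 35.5 CPM in P0 and 41.5 and 105.2 in P3. With both P3 libraries Vegfa was not called (0.84 ± 0.43, edgeR adjusted p = 0.167). Without P3 replicate 1 its log2 fold change was 1.37, and without P3 replicate 2 it was 0.0068. Ddit4 was at 92.6 and 91.4 CPM in P0 and 74.4 and 123.8 in P3. Its direction turned with the library left out, from 0.44 without P3 replicate 1 to −0.31 without P3 replicate 2. A fit with 1 P3 library takes its spread from the P0 libraries alone. Its p-values do not measure the spread between P3 libraries, so none are given for these genes.

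Marker lists of the tumour cells and of other cell types were also read between the tumour groups. Their counts stand beside the 18.8% of all tested genes called higher in P3 and the 19.9% called lower. Differences from these shares were not tested. Of the macrophage and monocyte list, 13 of 15 genes were lower in P3 and 1 higher, with sums of 502.4 and 417.7 CPM in P3, where P0 had 1668 and 2003 CPM. All 8 genes of the B-cell list were lower (64.0 and 69.2 CPM against 279.7 and 470.5), and 7 of 9 of the dendritic cell list. Of the fibroblast list, 3 of 11 were lower and 1 higher, with sums of 1275 and 2025 CPM against 3249 and 3280. Of the neutrophil list, 4 of 8 tested genes were higher, at 20.6 and 71.3 CPM against 9.70 and 12.4, the highest sum being in P3 replicate 2, where Vegfa was also highest. Of the T lymphoma list, 1 of 10 tested genes was higher and 2 lower (2099 and 2272 CPM against 2681 and 2386). Of the endothelial list, 0 of 10 genes were called (391.8 and 292.9 CPM against 359.3 and 359.6). The part of these cells in the levels of the 36 genes was not tested.

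Levels of different genes can be ordered within each table per kb of exon. In EG7-OVA cells the highest medians over the 6 libraries were those of Gapdh (671.8 CPM per kb), Ldha (301.1) and Pkm (298.9), and the lowest was that of P4ha2 (0.225). In tumours they were those of Ldha (367.9), Pkm (350.1) and Pgk1 (307.1), and Gapdh was only at rank 12 (53.1 CPM per kb). Ldha and Pkm overlapped over the libraries of each table (228 to 393 and 229 to 382 CPM per kb in EG7-OVA cells), so their order is not firm. Gapdh, with many processed copies in the genome, and Eno1, whose copy Eno1b held 14.4 to 35.0 CPM in tumours and at most 1.12 CPM in EG7-OVA cells, can share reads with near-identical sequences, and their levels are uncertain. The same limit holds for Bnip3l, Pgam1, Ldha and Pgk1. In tumours Bnip3l-ps held 5.35 to 9.95 CPM, Pgam1-ps2 3.41 to 9.23, Ldha-ps2 2.65 to 8.47 and Pgk1-rs7 2.92 to 5.96. In EG7-OVA cells each of these copies held at most 1.20 CPM.

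The neighbouring pathway genes were read from 4 lists of 113 genes, beside the 18.8% of all tested genes called higher and the 19.9% called lower in P3. Differences from these shares were not tested. In tumours 17 of 28 genes of pyruvate entry and the citric acid cycle were lower in P3 and 0 higher, with a median log2 fold change of −0.53. Without either P0 library no gene of the 4 lists was called in edgeR, against 50 with all libraries. Malate dehydrogenase Mdh1 was at 53.3 ± 0.706 CPM in P3 and 118.8 ± 0.73 in P0 (−1.16 ± 0.08, edgeR adjusted p = 0.00127). The succinate dehydrogenase subunits Sdhb (−0.92 ± 0.10, adjusted p = 0.00284) and Sdhd (−0.95 ± 0.12, 0.00417) and fumarate hydratase Fh1 (−0.88 ± 0.10, 0.00317) were also lower. Of 43 further hypoxia-induced genes 6 were higher and 15 lower. Among them the transferrin receptor Tfrc fell from 1017 ± 107.7 to 243.5 ± 34.5 CPM (−2.06 ± 0.16, edgeR adjusted p = 0.00144), the chemokine receptor Cxcr4 fell by 1.60 and Loxl2 by 2.02 on the log2 scale, and Rora rose by 1.83. Of 16 tested HIF subunits and regulators 3 were higher (Hif3a and Siah1a among them) and 3 lower (Rbx1 and Arnt2 among them), and of 20 tested isoenzymes and side steps 3 were higher (Pgm2, Eno3 and Pfkfb1) and 3 lower (Slc16a7 among them).

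In EG7-OVA cells 5 of 17 HIF subunits and regulators were higher with azacytidine and 4 with decitabine, and 0 lower. The counts of this list and the next ones are read beside the 13.6% (azacytidine) and 12.4% (decitabine) of all tested genes called higher and the 6.7% and 4.3% called lower, and differences from these shares were not tested. Cited2, which competes with HIF for the coactivator p300, rose from 43.7 ± 3.56 CPM to 94.2 ± 5.81 with azacytidine (1.11 ± 0.21, edgeR adjusted p = 0.00503) and 100.9 ± 28.6 with decitabine (1.21 ± 0.21, 0.00389). Vhl, the ubiquitin ligase subunit that binds hydroxylated HIF, rose by 0.75 ± 0.18 (adjusted p = 0.0149) and 0.67 ± 0.18 (0.0275), and Ep300 by 0.81 ± 0.16 (0.00731) and 0.56 ± 0.16 (0.0437). Hif3a was called with azacytidine and Arnt2 with decitabine. Of 20 tested isoenzymes and side steps, 6 were higher and 3 lower with azacytidine and 3 and 0 with decitabine. Fbp2, the muscle fructose bisphosphatase, which runs against phosphofructokinase, was at 0.125 ± 0.107 CPM with DMSO, 14.3 ± 8.16 with azacytidine and 20.97 ± 4.16 with decitabine (adjusted p = 0.000113 and 9.23e-05). The muscle mutase Pgam2 and the glucose carrier Slc2a6 were called higher with both drugs, and Pgm1 lower with azacytidine. Of 26 tested genes of pyruvate entry and the citric acid cycle, 4 were lower with azacytidine (Idh3a, Dld, Pdp1 and Suclg2) and 1 with decitabine (Dlat), and 0 higher. Of 39 further hypoxia-induced genes, 6 were higher and 8 lower with azacytidine and 8 and 4 with decitabine. Pnrc1 rose by 1.28 ± 0.16 (edgeR adjusted p = 0.000493) and 1.35 ± 0.16 (0.000443), while Stc2 fell by 1.26 and 1.38 and Cxcr4 by 1.09 and 0.99 on the log2 scale. Zfp395 was called higher with azacytidine and Bhlhe41 with decitabine. Over the 4 lists, 32 genes were called with azacytidine, and 7 without azacytidine replicate 1, 16 without azacytidine replicate 2 and 16 without DMSO replicate 1. With decitabine 20 were called, and 9 without decitabine replicate 2 and 10 without DMSO replicate 1.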

How the data were processed

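Per the submitters' processing notes, fastp, Trim Galore, STAR and featureCounts and the builds GRCh38 and mm10 were used, with no roles or versions. The authors deposited raw counts per gene for EL4 tumours. For EG7-OVA cells the authors deposited expected counts, of which 145 values in 62 rows were not whole, none of them in the 36 genes, and all were rounded here. Counts were tested with edgeR 4.0.16 (R 4.3.3) after TMM scaling and filterByExpr, by the quasi-likelihood test with Benjamini-Hochberg adjustment over all genes tested, 4 tumour libraries in one fit and 6 EG7-OVA libraries in another. The SE is the log2 fold change divided by the square root of F. Alternatives were DESeq2 1.42.0, limma-voom (limma 3.58.1), median-ratio size factors, other filters, a replicate block, and leaving out each library. The fit was also run on simulated counts, and no result here rests on that run. Exon lengths and positions came from GENCODE vM21. Of 14 libraries in the series 10 were used. The genes and lists were chosen with earlier results of these data known. Genes named from the 4 further pathway lists were the called genes with the smallest adjusted p, up to 4 per list and comparison. Library names number the DMSO replicates 1 and 2 where titles give 2 and 3, and the names were used. Deviations of same-numbered libraries correlated at r = −0.04 in tumours, 0.27 between the drugs, and −0.26 and −0.19 between DMSO and azacytidine or decitabine. With 2 libraries per group and no label that ties numbers to a shared culture or day, the numbers were not taken to pair the libraries.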

Additional observations from a re-analysis of the deposited data

How the results depend on the processing

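With 1 library left out at a time, the tumour comparison gave 0 to 7 members higher, 0 to 23 lower, 0 to 11286 genes called and 0 to 73 called in the 4 further pathway lists. Azacytidine gave 1 to 3 members higher, 3 to 8 lower, 1675 to 3897 genes and 7 to 31 in the lists. Decitabine gave 1 to 4 higher, 1 to 3 lower, 1520 to 3290 genes and 9 to 21 in the lists. The comparison between the drugs gave 0 to 5 genes. The tumour calls were lost in edgeR without either P0 library. A fit that leaves 1 library in a group takes its spread from the other groups. The counts of such fits therefore do not measure the spread within that group. DESeq2, added after seeing the data, called 3 members lower, 2267 genes and 17 list genes without P0 replicate 1, and 5, 2201 and 19 without P0 replicate 2. Its counts of called members also moved without P3 replicate 1 and without P3 replicate 2. Ddit4 in tumours ranged from −0.31 without P3 replicate 2, a reversal, to 0.44 without P3 replicate 1. With azacytidine the members called higher were 4 with DESeq2, 2 with limma-voom, 3 without a filter and 2 with a stricter filter. With decitabine they were 5 with DESeq2 and 5 without a filter, and 2 were lower when only the 4 libraries compared were fitted. Between the drugs DESeq2 called 177 genes, and 378 genes, with 1 list gene, were called without a filter. With the replicate block, Ero1a with decitabine (adjusted p = 0.0527) and Aldoa in tumours (0.111) were no longer called. Crossing the DMSO numbers, which turns both negative DMSO correlations positive and was also added after seeing the data, gave 3 members higher with azacytidine, 6 with decitabine and 167 genes between the drugs. The cause of these changes was not tested. With 2 libraries per group, differences of small size may go undetected.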
